A study of Homo sapiens with 24 samples.

Results

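ABHD6 knockout (KO) Huh7 cells, a human hepatoma line, were compared after 24 h in 800 µM palmitic acid and in basal medium at 0 h, with 4 RNA-seq libraries on each side, 8 of the 24 libraries of the study. The libraries were taken by the genotype and time in their sample names. Wild-type (WT) Huh7 cells at 24 h and 0 h, also with 4 libraries each, are given beside them, and KO cells at 48 h in 3 places. ABHD6 is a membrane hydrolase that cleaves monoacylglycerols, among them the endocannabinoid 2-arachidonoylglycerol. The labels do not give the number of KO clones, the way ABHD6 was disrupted or whether replicate libraries stem from different cultures. A p-value therefore measures the spread between libraries only. In the test of each gene below, that spread was pooled over all 6 groups, WT and 48 h libraries included. The series has no group kept in culture without palmitic acid, so the effect of the fatty acid and that of another day in culture cannot be told apart.

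Palmitic acid is a saturated fatty acid that hepatocytes activate to palmitoyl-CoA, oxidise in mitochondria, store in lipid droplets or use in membranes. Membranes rich in saturated chains disturb the endoplasmic reticulum (ER), whose sensor kinase PERK halts protein synthesis and raises the transcription factor ATF4, while ATF6 and IRE1 with XBP1 raise chaperones and degradation factors. Cells loaded with saturated fat are also known for oxidative stress, for which NRF2 is the main transcription factor.

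In KO cells 7 of 22 tested integrated stress response genes and 7 of 23 ER chaperone genes were higher at 24 h than at 0 h. So were 7 of 31 genes of cholesterol synthesis, 12 of 13 mitochondrially encoded protein genes, AREG, CXCL5, GCLC and PLIN2. HMGB2, MCM3, APOA1, FGB, NR1I3, SLC2A1 and RPL7A were lower. GCLC, APOA1, NR1I3 and SLC2A1 overlap an exon on the other strand, a limit described below. Of the 7 ER chaperones 3 had no such overlap, and of the 7 cholesterol genes 4. MCM3 and RPL7A were not called in a fit of the 8 KO libraries alone. The test covered 17252 genes that averaged 0.5 FPKM or more over the 24 libraries, where FPKM counts fragments by gene length and library size. Of these, 973 passed an adjusted p of 0.05 (5.64%), 368 higher (2.13%) and 605 lower (3.51%). The counts of list members below are to be read beside these shares. The method was limma's moderated test on log2(FPKM + 0.5), adjusted by Benjamini-Hochberg over all 17252 genes. All fold changes are on that scale, KO 24 h over KO 0 h unless stated, with their standard error. The scale understates the change of low genes. Of the 973 genes, 648 (3.76% of those tested) were past 1 on the log2 scale in either direction. The 4 and 4 libraries did not overlap for 1924 genes (11.2%), 773 higher (4.48%) and 1151 lower (6.67%). Some called genes had overlapping groups, HERPUD1, KDM3A, DNAJB9, HSD17B12 and MCM2 among them. The excess of lower calls depended on the scaling. After median-of-ratios rescaling 467 genes were higher and 496 lower, and after quantile normalization 463 were higher and 357 lower. The median log2 fold change of the 3341 genes averaging 20 FPKM or more was -0.20 as deposited, -0.10 after median-of-ratios rescaling and 0 after quantile normalization, so changes of highly expressed genes are relative to that shift.

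The KO 24 h and KO 0 h libraries also differed in ways that run across all genes. Mitochondrially encoded genes held 11.5% ± 0.961 of summed FPKM at 24 h and 3.89% ± 0.519 at 0 h (SD, n = 4 each). Genes annotated as antisense held 47.1% ± 0.639 at 24 h and 57.2% ± 0.551 at 0 h. The steps of the FPKM values gave 582702 to 596309 fragments per library behind the values at 24 h and 415355 to 504560 at 0 h. A single fragment on 2 kb was worth 0.845 FPKM at 24 h and 1.15 FPKM at 0 h on average. For the mitochondrial share, the antisense share and the fragments the groups did not overlap (exact permutation test, two-sided, p = 0.0286, the smallest 4 against 4 libraries can give). The part of depth, of the mitochondrial share and of the antisense share in the results below was not tested.

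**Figure D1:**
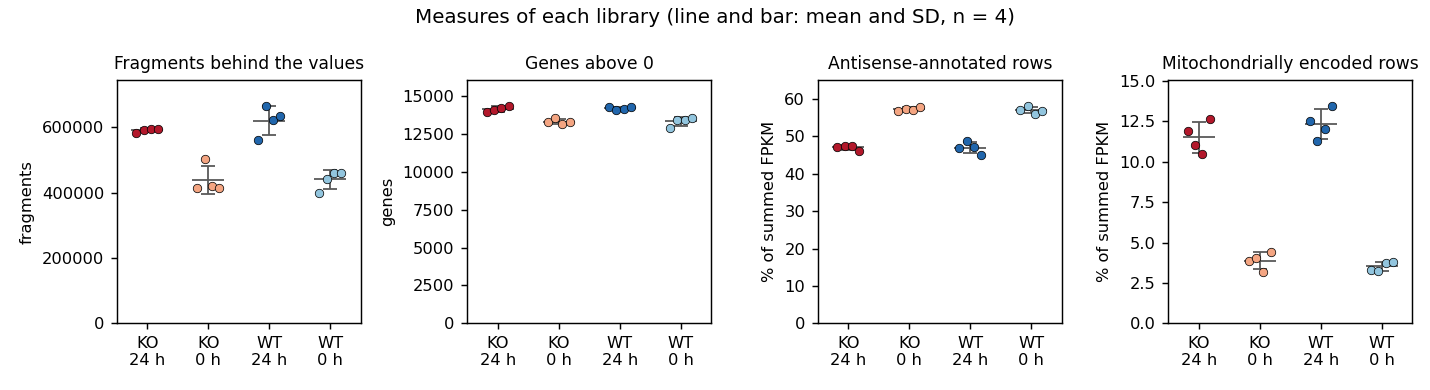
Each point is 1 library, in KO cells at 24 h and 0 h and in WT cells at 24 h and 0 h. The panels show the fragments behind the values, the genes above 0 FPKM, the share of summed FPKM on antisense genes and the share on mitochondrially encoded genes, both in percent. In KO cells the antisense share was 47.1% at 24 h and 57.2% at 0 h on average, and the mitochondrial share 11.5% and 3.89%.

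The library kit keeps the strand, but no source used here states the strand setting of the counting. Antisense genes stood above the protein-coding gene they overlap in 949 of 1577 pairs (60.2%) at KO 24 h and in 1020 (64.7%) at KO 0 h. Where a gene overlaps an exon on the other strand, its fragments and those of its partner therefore cannot be told apart, and such genes carry the mark ° below. Whether fragments were assigned to the wrong strand was not tested, so genes without the mark are not shown to be unaffected. Of the 6786 protein-coding genes with no such overlap, 183 were higher and 74 lower. Of the 5257 with one, 107 were higher and 292 lower, and of 2228 antisense genes 44 were higher and 173 lower. Adjusted over the 9303 genes without overlap alone, 138 were higher and 61 lower. Calls also went with level. They made up 0.596% of genes with a mean between 0.5 and 2 FPKM and 37.5% of those at 100 FPKM or more.

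ABHD6 itself (ENSG00000163686.14, chr3:58237506-58295693, plus strand, GRCh38) was near the limit of these libraries. It had 0, 0, 0 and 0.759 FPKM in the KO 24 h libraries and was listed at 0 in all KO 0 h libraries. The WT libraries had 0.785, 0, 0 and 0 FPKM at 24 h and 1.16, 0, 0 and 0 FPKM at 0 h. These values do not separate KO from WT cells, so they do not check the genotype label. None of the 10 tested genes of monoacylglycerol and endocannabinoid metabolism passed the test. Their median log2 fold change was -0.05, beside 0 over all genes tested.

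Hepatocyte markers had the highest summed level of the cell type markers. All 10 hepatocyte markers were measured, with summed levels of 822 to 1089 FPKM at KO 24 h and 1041 to 1136 FPKM at KO 0 h. Of the fibroblast markers, COL1A1, COL3A1, LRAT and DCN were at 0 in all 8 KO libraries, as were the endothelial markers VWF, CDH5, KDR and LYVE1 and the immune markers PTPRC, CD3E and MS4A1. The summed level of the 7 immune markers was 150 to 213 FPKM at KO 24 h and 150 to 219 FPKM at KO 0 h. Most of it was LYZ°, which overlaps AC020656.1 and averaged 160 ± 22.8 FPKM at 24 h and 165 ± 16.2 FPKM at 0 h. The 6 endothelial markers summed to 3.54 to 11.3 FPKM at KO 24 h and 3.77 to 27.0 FPKM at KO 0 h. The 5 biliary markers summed to 22.9 to 52.6 FPKM at KO 24 h and 14.6 to 22.2 FPKM at KO 0 h. For the 8 fibroblast markers the sums were 0 to 9.80 and 0 to 3.53 FPKM. No marker of fibroblasts, immune, endothelial or biliary cells passed the test.

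The promoters of 3 called ER genes are printed first, because they hold the motif that ATF6 and XBP1 are known to act through. That motif is the ER stress response element, CCAAT and CCACG with any 9 bases between them, or its second form, ATTGG and CCACG with any 1 base between them, each searched on both strands in the 250 bases before the RefSeq start (GRCh38.p14). The first form was present in 26 of 35116 promoters (0.0740%) and the second in 18 (0.0513%). Of the 37 genes of the chaperone and degradation lists with a promoter in the table, 7 held the first form and 3 the second. Of the 180 promoters counted for called higher genes, 1 held the first form and 1 the second. That count did not take in every called higher gene, and the 3 printed promoters were chosen for holding a match. Capitals mark the match, and HYOU1 holds the reverse complement at 2 places.
HERPUD1: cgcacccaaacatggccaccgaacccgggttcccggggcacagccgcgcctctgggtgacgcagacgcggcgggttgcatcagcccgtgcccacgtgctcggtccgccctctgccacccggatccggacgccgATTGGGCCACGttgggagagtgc
HSPA5: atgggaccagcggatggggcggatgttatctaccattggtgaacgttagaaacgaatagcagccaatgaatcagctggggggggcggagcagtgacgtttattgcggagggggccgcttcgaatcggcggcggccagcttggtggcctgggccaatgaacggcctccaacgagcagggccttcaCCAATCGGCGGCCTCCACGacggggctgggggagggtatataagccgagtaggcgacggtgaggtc
HYOU1: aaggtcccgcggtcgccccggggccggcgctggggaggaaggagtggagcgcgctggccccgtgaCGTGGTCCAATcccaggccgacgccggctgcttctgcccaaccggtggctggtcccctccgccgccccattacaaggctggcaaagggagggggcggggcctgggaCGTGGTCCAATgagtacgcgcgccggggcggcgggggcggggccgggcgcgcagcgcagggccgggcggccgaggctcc
The HERPUD1 stretch is chr16:56931892-56932047 on the plus strand, up to the first base of the gene in GENCODE release 29. The HSPA5 stretch is chr9:125241344-125241593 and the HYOU1 stretch chr11:119057206-119057455, both on the minus strand. In HSPA5 the match lay 66 to 48 bases before the RefSeq start, and in HYOU1 185 to 175 and 79 to 69 bases. In HERPUD1 it lay 117 to 107 bases before the RefSeq start, which is downstream of the end of the printed stretch. CALR, CANX, CRELD2, ERO1B, HSP90B1, PDIA6 and SDF2L1 also held a match, and of these HSP90B1° alone was called.

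HSPA5, the ER chaperone BiP that holds the stress sensors inactive, had 198, 173, 219 and 223 FPKM at KO 24 h, against 79.2, 61.4, 78.1 and 68.0 FPKM at KO 0 h. Each KO 24 h library was above each KO 0 h library, with a log2 fold change of 1.5 ± 0.19 (limma, adjusted p = 1.21e-05). HYOU1°, another ER chaperone of the HSP70 family, had 56.4, 48.1, 64.8 and 40.2 FPKM at KO 24 h and 17.4, 16.2, 13.2 and 15.8 FPKM at KO 0 h. It rose by 1.70 ± 0.29 (limma, adjusted p = 0.000517). HSP90B1°, the ER member of the HSP90 family, rose by 1.03 ± 0.18 (limma, adjusted p = 0.000999), with 516 ± 72.2 FPKM at KO 24 h and 257 ± 65.3 FPKM at KO 0 h (SD, n = 4 each). HERPUD1, which recruits factors of ER-associated degradation, had 48.8, 12.5, 20.2 and 75.9 FPKM at KO 24 h, against 1.07, 15.9, 0 and 0 FPKM at KO 0 h. KO 0 h replicate 1 lay above the lowest KO 24 h library, so the groups overlapped. The log2 fold change was 4.32 ± 0.84 (limma, adjusted p = 0.00227) and 5.44 without that library.

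Over the list of 23 ER chaperones and folding enzymes, 7 were higher and none lower, against 2.13% and 3.51% of all genes tested, and the median log2 fold change was 0.61 beside 0. The others were MANF, DNAJC3, DNAJB9° and DNAJB11°. MANF, a secreted ER stress protein, averaged 60.8 ± 8.85 FPKM at KO 24 h and 17.2 ± 11.3 FPKM at KO 0 h (SD, n = 4 each) and rose by 1.99 ± 0.47 (limma, adjusted p = 0.0112). DNAJC3, an HSPA5 cochaperone, rose by 1.58 ± 0.40 (limma, adjusted p = 0.0175), a call lost in 2 of the 8 fits that left out 1 KO library, with an adjusted p of up to 0.0614 (without KO 0 h replicate 2). DNAJB9° and DNAJB11° lost their call in 5 and 7 of these fits, with an adjusted p of up to 0.144 (without KO 0 h replicate 3) and 0.161 (without KO 24 h replicate 2). HERPUD1 was the 1 called gene of 20 in ER-associated degradation. SSR3 of the translocon-associated protein complex rose by 1.11 ± 0.25 and SRP54 of the signal recognition particle by 1.14 ± 0.23 (limma, adjusted p = 0.009 and 0.00326), and COPG1 of the COPI coat was the third called gene of 40 in ER translocation and ER to Golgi transport, lost in 5 of the 8 fits (up to 0.118, without KO 0 h replicate 3). None of the 9 stress sensors and their factors passed the test. XBP1 averaged 76.2 ± 14.7 FPKM at KO 24 h and 64.4 ± 19.9 FPKM at KO 0 h (SD, n = 4 each; limma, adjusted p = 0.71), and FPKM does not show its splicing. In a fit of the 8 KO libraries alone, HERPUD1, MANF, DNAJC3, DNAJB9, DNAJB11 and COPG1 were not called. HSPA8, the constitutive HSP70 of the cytosol, had 188, 202, 194 and 159 FPKM at KO 24 h and 375, 430, 371 and 242 FPKM at KO 0 h. It fell by 0.91 ± 0.19 (limma, adjusted p = 0.00383) with no overlap, but was not called after quantile normalization, and it was the 1 called gene of 22 cytosolic heat shock genes.

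**Figure D2:**
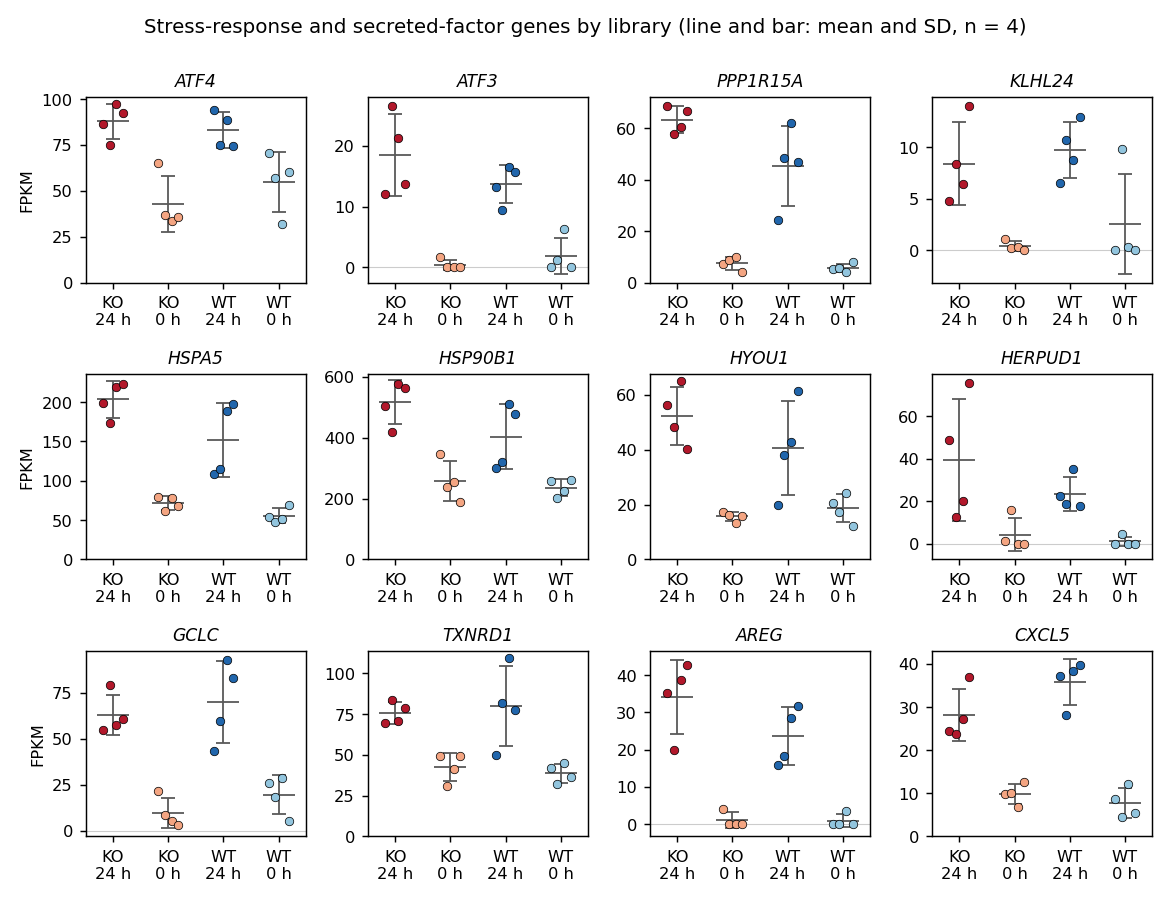
Level in FPKM of 12 stress and signalling genes, a panel each, with a point per library, the mean as a line and the SD as a bar. Groups run from KO 24 h and KO 0 h to WT 24 h and WT 0 h. In 11 panels the KO 24 h and KO 0 h points do not overlap, as for 11.2% of all genes tested. In the HERPUD1 panel KO 0 h replicate 1, at 15.9 FPKM, lies above the lowest KO 24 h library at 12.5 FPKM. The genes shown were chosen after their values were seen, so the number of separate panels is no result.

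Genes of the integrated stress response followed. PPP1R15A (ENSG00000087074.7, chr19:48872392-48876057), which directs the phosphatase that restarts protein synthesis, had 68.9, 57.6, 60.7 and 66.6 FPKM at KO 24 h, against 7.14, 8.61, 10.1 and 4.29 FPKM at KO 0 h. The groups lay far apart, with a log2 fold change of 3.05 ± 0.30 (limma, adjusted p = 4.39e-07). ATF4 (ENSG00000128272.14, chr22:39519695-39522685), the transcription factor at the centre of this response, had 86.4, 75.1, 97.4 and 92.4 FPKM at KO 24 h and 65.4, 36.8, 33.4 and 35.6 FPKM at KO 0 h. KO 0 h replicate 0 lay nearest to the KO 24 h libraries but below all of them, and ATF4 rose by 1.08 ± 0.23 (limma, adjusted p = 0.00452). ATF3, a stress-induced transcription factor downstream of ATF4, had 12.1, 26.6, 21.4 and 13.7 FPKM at KO 24 h and 1.63, 0, 0 and 0 FPKM at KO 0 h. Its log2 fold change of 4.65 ± 0.64 (limma, adjusted p = 5.13e-05) depends in size on the pseudocount, since 3 of the KO 0 h libraries were at 0. KLHL24, a ubiquitin ligase adaptor, had 4.81, 8.35, 6.41 and 14.1 FPKM at KO 24 h and 1.03, 0.241, 0.289 and 0 FPKM at KO 0 h, and rose by 3.34 ± 0.72 (limma, adjusted p = 0.00556).

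Of 22 tested genes of this list 7 were higher and none lower, with a median log2 fold change of 0.79. The other 3 called were less stable. GDF15, a secreted stress hormone, had 43.2, 22.5, 30.5 and 37.8 FPKM at KO 24 h and 0, 5.72, 3.43 and 0 FPKM at KO 0 h, with no overlap and a log2 fold change of 4.39 ± 1.07 (limma, adjusted p = 0.0144). Its call was lost in 2 of 8 fits that left out 1 library, with an adjusted p of 0.0642 without KO 0 h replicate 3. TRIB3, a pseudokinase that restrains AKT, averaged 17.7 ± 8.66 FPKM at KO 24 h and 7.32 ± 1.38 FPKM at KO 0 h (SD, n = 4 each; limma, adjusted p = 0.0302), and NUPR1 averaged 13 ± 11.8 and 2.89 ± 5.79 FPKM (limma, adjusted p = 0.0402). These were lost in 5 and 6 of the 8 fits, with an adjusted p of 0.106 for TRIB3 without KO 24 h replicate 2 and of 0.146 for NUPR1 without KO 24 h replicate 3. NUPR1 was lost under 6 other settings, and TRIB3, NUPR1, GDF15 and CTH were not called in a fit of the 8 KO libraries alone. DDIT3°, the proapoptotic factor CHOP, averaged 38.4 ± 4.54 FPKM at KO 24 h and 23.0 ± 8.36 FPKM at KO 0 h and did not pass (SD, n = 4 each; limma, adjusted p = 0.144).

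The amino acid genes that ATF4 is known to drive mostly did not pass. CTH, which makes cysteine from cystathionine, rose by 3.07 ± 0.68 (limma, adjusted p = 0.00719), with 14, 7.73, 9.89 and 6.83 FPKM at KO 24 h and 2.21, 0, 0 and 2.22 FPKM at KO 0 h. It was the 1 called gene of 22 amino acid synthesis enzymes and transporters. ASNS, asparagine synthetase, averaged 24.3 ± 8.53 FPKM at KO 24 h and 12.7 ± 4.92 FPKM at KO 0 h (SD, n = 4 each; limma, adjusted p = 0.25), and PSAT1 of serine synthesis 31.2 ± 3.32 and 25.0 ± 6.11 FPKM (limma, adjusted p = 0.509). AARS, alanyl-tRNA synthetase, had 181, 168, 189 and 137 FPKM at KO 24 h and 69.7, 97.7, 108 and 78.8 FPKM at KO 0 h. It rose by 0.94 ± 0.20 (limma, adjusted p = 0.00467) and was the 1 called gene of 18 tRNA synthetases.

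GCLC°, the rate-limiting enzyme of glutathione synthesis and a target of NRF2, had 55.0, 79.0, 57.7 and 60.6 FPKM at KO 24 h, against 21.6, 8.82, 5.45 and 3.31 FPKM at KO 0 h. All KO 24 h libraries were above all KO 0 h libraries, and GCLC rose by 2.93 ± 0.46 (limma, adjusted p = 0.000236). TXNRD1, thioredoxin reductase, had 69.7, 83.7, 70.5 and 78.6 FPKM at KO 24 h and 49.0, 31.1, 41.2 and 49.5 FPKM at KO 0 h, and rose by 0.84 ± 0.20 (limma, adjusted p = 0.0137). NQO1°, a quinone reductase, and FTH1°, the heavy chain of ferritin, were called too. In the NRF2 list 4 of 33 were called (12.1%), beside 5.64% of all genes tested. None was lower, and the median log2 fold change was 0.37. NQO1 lost its call in 4 of 8 fits that left out 1 library (adjusted p of up to 0.0927, without KO 24 h replicate 0) and FTH1 in 5 (up to 0.102, without KO 0 h replicate 2). SLC7A11°, the cystine carrier, averaged 10.3 ± 1.91 FPKM at KO 24 h and 5.71 ± 1.38 FPKM at KO 0 h and did not pass (SD, n = 4 each; limma, adjusted p = 0.135). Without a variance trend TXNRD1 and FTH1 were not called, and in a fit of the 8 KO libraries alone NQO1 was not.

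Among autophagy genes 3 of 26 were called (11.5%) and among lysosomal genes 1 of 32 (3.12%), beside 5.64% of all genes tested. GABARAP°, which joins growing autophagosome membranes, averaged 30.5 ± 5.30 FPKM at KO 24 h and 8.33 ± 6.73 FPKM at KO 0 h (SD, n = 4 each) and rose by 2.08 ± 0.44 (limma, adjusted p = 0.00473), though not in a fit of the 8 KO libraries alone. The cargo receptor SQSTM1° was higher and the E1-like enzyme ATG7° lower, with a log2 fold change of 0.61 ± 0.18 and -0.43 ± 0.12 (limma, adjusted p = 0.0425 and 0.0326). The lysosomal protease CTSA° was higher by 0.65 ± 0.18 (limma, adjusted p = 0.0304). SQSTM1 lost its call in 7 of 8 fits that left out 1 library, and ATG7 and CTSA in 5 each. The highest adjusted p was 0.161 for SQSTM1 (without KO 0 h replicate 2), 0.0945 for ATG7 (without KO 24 h replicate 3) and 0.0928 for CTSA (without KO 0 h replicate 1). ATG7 was not called after either rescaling.

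Lipid handling changed at a few points. PLIN2 (ENSG00000147872.9, chr9:19108375-19149290), which coats lipid droplets, had 19.7, 21.2, 31.8 and 24.9 FPKM at KO 24 h, against 6.43, 5.72, 6.66 and 5.03 FPKM at KO 0 h. All KO 24 h values lay above those at KO 0 h, with a log2 fold change of 1.93 ± 0.42 (limma, adjusted p = 0.00636). ACSL1, which activates long-chain fatty acids to their CoA esters, had 4.99, 5.76, 2.22 and 5.12 FPKM at KO 24 h and 0.978, 0, 1.61 and 0 FPKM at KO 0 h. It rose by 2.35 ± 0.49 (limma, adjusted p = 0.00454). CPT1A, which gates entry of fatty acids into mitochondria, averaged 4.01 ± 2.10 FPKM at KO 24 h and 0.673 ± 0.458 FPKM at KO 0 h (SD, n = 4 each; limma, adjusted p = 0.0321), a call lost in 4 of 8 fits that left out 1 library (up to 0.0998, without KO 0 h replicate 3) and after quantile normalization.

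Genes that pass electrons from beta oxidation to the respiratory chain differed in direction. ETFA, a subunit of the electron transfer flavoprotein, had 34.1, 43.4, 56.1 and 55.0 FPKM at KO 24 h and 8.05, 16.5, 27.2 and 24.4 FPKM at KO 0 h and rose by 1.39 ± 0.32 (limma, adjusted p = 0.00967). ETFB°, the other subunit, averaged 12.1 ± 6.45 FPKM at KO 24 h and 21.6 ± 10.4 FPKM at KO 0 h and did not pass (SD, n = 4 each; limma, adjusted p = 0.402). ETFDH°, its dehydrogenase, overlaps PPID and had 135, 130, 148 and 136 FPKM at KO 24 h, against 203, 211, 261 and 218 FPKM at KO 0 h. It fell by 0.70 ± 0.17 (limma, adjusted p = 0.0116), which was not called after quantile normalization or without a variance trend. Of 34 genes of fatty acid activation and oxidation, 3 were higher and 1 lower, with a median of 0.19. Called genes were 11.8% of that list, beside 5.64% of all genes tested. In a fit of the 8 KO libraries alone ACSL1, CPT1A and ETFA were not called. Among 13 tested targets of the fatty acid receptor PPAR alpha 3 were higher, CPT1A, PLIN2 and TRIB3, beside 2.13% of all genes tested. All 3 are described above and add no further calls. The calls of CPT1A and TRIB3 were not stable when 1 library was left out, as given above.

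Of 22 genes of fatty acid synthesis, elongation and desaturation, 1 was higher and 2 lower, and all 3 overlap an exon on the other strand. FADS1° and FADS2°, the desaturases of polyunsaturated fatty acids, overlap each other. FADS1 had 370, 394, 378 and 244 FPKM at KO 24 h, against 679, 766, 605 and 642 FPKM at KO 0 h, and fell by 0.98 ± 0.17 (limma, adjusted p = 0.000745). FADS2 averaged 90.3 ± 15.0 FPKM at KO 24 h and 158 ± 25.8 FPKM at KO 0 h (SD, n = 4 each; limma, adjusted p = 0.0374), a call lost in 5 of 8 fits that left out 1 library (up to 0.117, without KO 0 h replicate 2). Neither was called after quantile normalization. HSD17B12°, an enzyme of fatty acid elongation, averaged 63.6 ± 13.5 FPKM at KO 24 h and 25.5 ± 19.5 FPKM at KO 0 h (limma, adjusted p = 0.0209), lost in 3 of the 8 fits (up to 0.0877, without KO 0 h replicate 0). SCD, which desaturates palmitoyl- and stearoyl-CoA, averaged 129 ± 7.56 FPKM at KO 24 h and 102 ± 7.57 FPKM at KO 0 h and did not pass (SD, n = 4 each; limma, adjusted p = 0.221). FASN, fatty acid synthase, averaged 18.9 ± 7.36 FPKM at KO 24 h and 25.1 ± 5.44 FPKM at KO 0 h (limma, adjusted p = 0.561).

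Cholesterol synthesis had 7 of 31 genes higher and none lower, with a median log2 fold change of 0.38, and the count of 7 higher was the same after both rescalings. CYP51A1°, the demethylase of lanosterol, had 210, 209, 189 and 210 FPKM at KO 24 h, against 112, 87.0, 93.5 and 134 FPKM at KO 0 h. It rose by 0.95 ± 0.16 (limma, adjusted p = 0.000364) with no overlap. HMGCS1°, an early enzyme of the pathway, averaged 98.5 ± 25.2 FPKM at KO 24 h and 46.4 ± 12.1 FPKM at KO 0 h (SD, n = 4 each) and rose by 1.08 ± 0.23 (limma, adjusted p = 0.0046). Squalene epoxidase, SQLE, had 29.5, 28.5, 26.8 and 43.9 FPKM at KO 24 h and 16.7, 11.5, 17.2 and 11.2 FPKM at KO 0 h and rose by 1.16 ± 0.27 (limma, adjusted p = 0.0108). These groups were separate in each case. The isomerase IDI1° rose by 0.90 ± 0.21 and INSIG1, which retains the SREBP complex in the ER, by 0.98 ± 0.23 (limma, adjusted p = 0.0116 and 0.0112). MSMO1, a sterol oxidase, rose by 0.84 ± 0.23 and SC5D, a sterol desaturase, by 1.77 ± 0.45 (limma, adjusted p = 0.0302 and 0.0189), the second lost in 3 of 8 fits that left out 1 library (up to 0.0821, without KO 24 h replicate 1). In a fit of the 8 KO libraries alone 3 of the list were called, and HMGCS1, IDI1, INSIG1 and SC5D were not.

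No gene of triglyceride synthesis (18 tested) or of phospholipid synthesis and remodelling (20 tested) passed. CIDEB°, a droplet protein of very low density lipoprotein loading, and ORMDL2°, an inhibitor of sphingolipid synthesis, were lower by small amounts, with log2 fold changes of -0.45 ± 0.13 and -0.49 ± 0.14 (limma, adjusted p = 0.0329 and 0.0312). Each was lost in 5 of 8 fits that left out 1 library, with an adjusted p of up to 0.108 (without KO 0 h replicate 3) and 0.109 (without KO 0 h replicate 2), and after quantile normalization. APOA1°, the main protein of high density lipoprotein, had 23.3, 27.3, 29.6 and 21.2 FPKM at KO 24 h, against 86.0, 60.3, 77.7 and 81.3 FPKM at KO 0 h. Every KO 24 h library was below every KO 0 h library. APOA1 fell by 1.57 ± 0.19 (limma, adjusted p = 1.12e-05) and was the 1 called gene of 18 for apolipoproteins and their assembly. APOB°, of the very low density lipoprotein, averaged 28.0 ± 3.10 FPKM at KO 24 h and 29.6 ± 2 FPKM at KO 0 h (SD, n = 4 each; limma, adjusted p = 0.872).

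**Figure D3:**
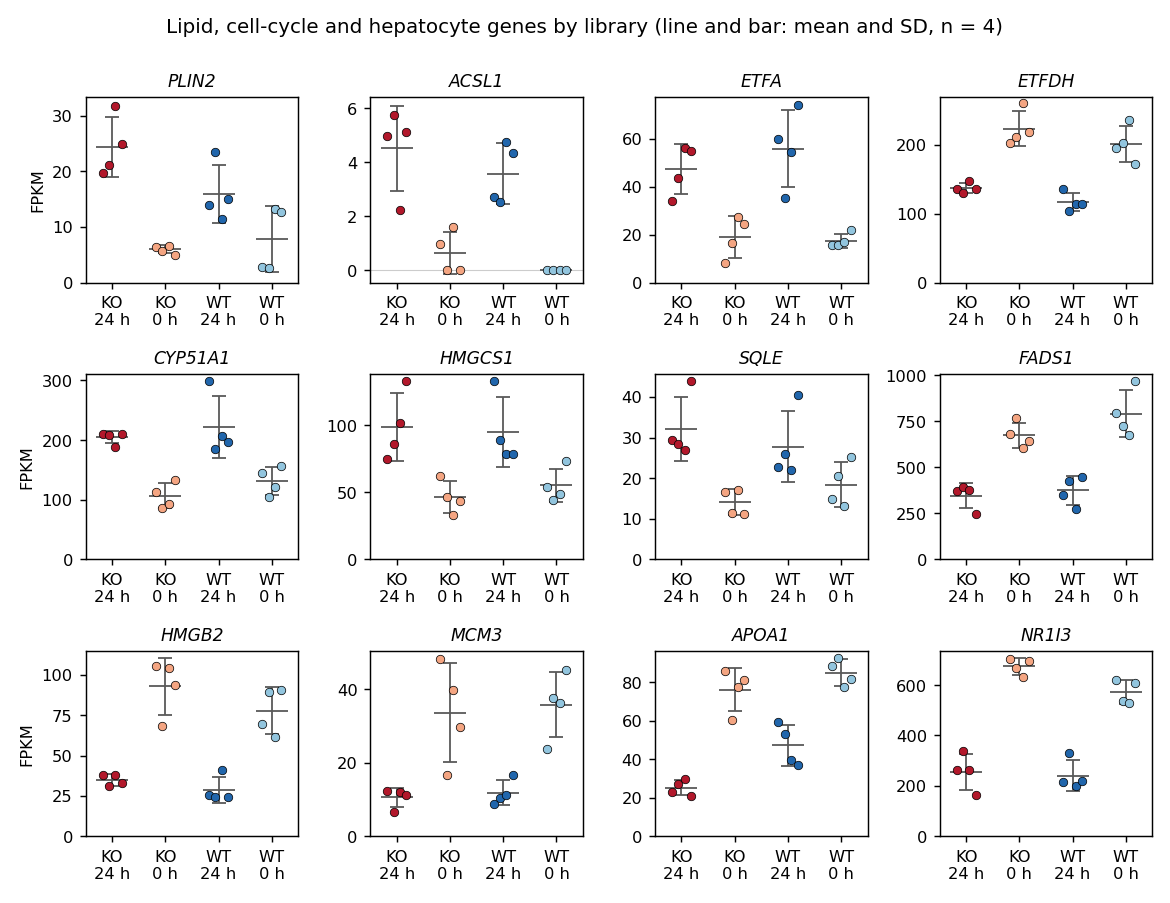
Level in FPKM of 12 genes of lipid metabolism, the cell cycle and hepatocyte function, a panel each, with a point per library, the mean as a line and the SD as a bar. Groups run from KO 24 h and KO 0 h to WT 24 h and WT 0 h. In each of the 12 panels the KO 24 h and KO 0 h points do not overlap, as for 11.2% of all genes tested. The genes shown were chosen after their values were seen, so the number of separate panels is no result.

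AREG (ENSG00000109321.10, chr4:74445134-74455009), a ligand of the EGF receptor, had 35.2, 19.9, 38.8 and 42.7 FPKM at KO 24 h and 4.18, 0, 0 and 0 FPKM at KO 0 h. The log2 fold change of 5.25 ± 0.65 (limma, adjusted p = 1.1e-05) depends in size on the pseudocount. EGFR° itself averaged 3.44 ± 0.679 FPKM at KO 24 h and 3.30 ± 1.81 FPKM at KO 0 h (SD, n = 4 each; limma, adjusted p = 0.915). CXCL5, a neutrophil chemokine, had 24.5, 23.7, 27.3 and 36.9 FPKM at KO 24 h, against 9.83, 10.2, 6.85 and 12.5 FPKM at KO 0 h, and rose by 1.47 ± 0.28 (limma, adjusted p = 0.00194). CXCL8, another neutrophil chemokine, averaged 6.11 ± 3.33 FPKM at KO 24 h and 0.363 ± 0.727 FPKM at KO 0 h, and the cytokine IL32 averaged 7.90 ± 2.62 and 1.79 ± 3.58 FPKM (SD, n = 4 each; limma, adjusted p = 0.0196 and 0.0337). Their calls were lost in 5 and 7 of 8 fits that left out 1 library, with an adjusted p of up to 0.0636 (without KO 24 h replicate 1) and 0.107 (without KO 0 h replicate 2), and in a fit of the 8 KO libraries alone. These were the 3 called of 19 inflammatory genes (15.8%), beside 5.64% of all genes tested. None of 14 interferon response genes passed.

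Of 23 immediate early genes 3 were higher and none lower, with a median log2 fold change of 0.87. KLF4, a zinc finger transcription factor, had 8.76, 3.77, 13 and 8.08 FPKM at KO 24 h and was listed at 0 in all KO 0 h libraries (limma, adjusted p = 2.04e-06). DUSP1, a phosphatase of MAP kinases, had 2.73, 7.27, 3.30 and 4.47 FPKM at KO 24 h and was also listed at 0 in all KO 0 h libraries (limma, adjusted p = 0.0109). KLF6 had 12.8, 22.4, 19.6 and 14.3 FPKM at KO 24 h and 4.76, 3.65, 6.30 and 3.82 FPKM at KO 0 h and rose by 1.78 ± 0.42 (limma, adjusted p = 0.0109). JUN, a subunit of AP-1, averaged 7.84 ± 2.69 FPKM at KO 24 h and 3.43 ± 1.11 FPKM at KO 0 h and did not pass (SD, n = 4 each; limma, adjusted p = 0.151). PMAIP1, the BH3-only protein NOXA, averaged 9.35 ± 3.80 FPKM at KO 24 h and 2.90 ± 0.823 FPKM at KO 0 h (limma, adjusted p = 0.0249). It was the 1 called gene of 31 of the BCL2 family, death receptors and caspases, lost in 4 of 8 fits that left out 1 library (up to 0.0785, without KO 24 h replicate 2) and in a fit of the 8 KO libraries alone.

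Genes that hypoxia is known to raise moved in both directions, 2 higher and 1 lower of 16. Called genes were 18.8% of that list, beside 5.64% of all genes tested. NDRG1, a stress-responsive cytosolic protein, had 18.4, 5.69, 7.08 and 7.90 FPKM at KO 24 h and 0, 2.01, 0 and 0 FPKM at KO 0 h, and rose by 3.63 ± 0.58 (limma, adjusted p = 0.00027). KDM3A, a histone demethylase, averaged 27.6 ± 16.6 FPKM at KO 24 h and 5.35 ± 3.48 FPKM at KO 0 h (SD, n = 4 each; limma, adjusted p = 0.00557) and was not called in a fit of the 8 KO libraries alone. SLC2A1°, the glucose transporter GLUT1, had 20.2, 8.09, 8.29 and 2.86 FPKM at KO 24 h, against 84.8, 54.1, 57.2 and 53.7 FPKM at KO 0 h, and fell by 2.86 ± 0.65 (limma, adjusted p = 0.00872). VEGFA° averaged 9.43 ± 3.14 FPKM at KO 24 h and 7.54 ± 5.19 FPKM at KO 0 h (SD, n = 4 each; limma, adjusted p = 0.699). GAPDH°, the 1 called gene of 20 glycolytic and gluconeogenic enzymes, averaged 191 ± 10.0 FPKM at KO 24 h and 285 ± 37.7 FPKM at KO 0 h and fell by 0.57 ± 0.13 (limma, adjusted p = 0.0112), which was not called after quantile normalization or without a variance trend.

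Of 34 mitotic genes 4 were called (11.8%), and of 36 genes of DNA replication 2 (5.56%), all of them lower. Over all genes tested 5.64% were called, so the replication count was near that share. HMGB2 (ENSG00000164104.11, chr4:173331695-173335125), a chromatin protein of dividing cells, had 37.9, 31.0, 38.2 and 32.9 FPKM at KO 24 h, against 106, 68.0, 104 and 93.4 FPKM at KO 0 h. The groups did not overlap, and HMGB2 fell by 1.38 ± 0.20 (limma, adjusted p = 0.000109). MCM3, a subunit of the replicative helicase, had 12.4, 6.63, 11.9 and 11.3 FPKM at KO 24 h and 48.2, 16.7, 39.7 and 29.9 FPKM at KO 0 h, and fell by 1.56 ± 0.35 (limma, adjusted p = 0.00752). CENPE, a kinesin of the kinetochore, averaged 0.811 ± 0.510 FPKM at KO 24 h and 5.56 ± 2.11 FPKM at KO 0 h (SD, n = 4 each; limma, adjusted p = 0.016). TUBB4B°, a beta tubulin, fell by 1.10 ± 0.26 (limma, adjusted p = 0.0116), which was lost in 1 of 8 fits that left out 1 library (0.0541, without KO 24 h replicate 3). AURKA and MCM2° lost their call in 7 and 6 of these fits, with an adjusted p of up to 0.152 (without KO 24 h replicate 0) and 0.124 (without KO 24 h replicate 1). The median log2 fold change was -0.48 for the mitotic list and -0.38 for the replication list, beside 0 over all genes tested. TOP2A, the topoisomerase of dividing cells, averaged 10.7 ± 3.82 FPKM at KO 24 h and 28.8 ± 13.1 FPKM at KO 0 h (SD, n = 4 each; limma, adjusted p = 0.173). CCNB1, the mitotic cyclin, averaged 15.8 ± 4.83 and 24.8 ± 10.5 FPKM (limma, adjusted p = 0.343). In a fit of the 8 KO libraries alone HMGB2 was the 1 called gene of both lists. Fewer dividing cells and less of these RNAs per cell cannot be told apart in bulk libraries. ID1, an inhibitor of differentiation factors, averaged 9.58 ± 9.77 FPKM at KO 24 h and 35.8 ± 9.95 FPKM at KO 0 h (limma, adjusted p = 0.0404), a call lost in 6 of 8 fits that left out 1 library (up to 0.138, without KO 24 h replicate 2) and after both rescalings.

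Of 20 hepatocyte transcription factors 1 was higher and 1 lower. NR1I3°, the xenobiotic receptor CAR, overlaps TOMM40L and had 262, 338, 262 and 163 FPKM at KO 24 h, against 703, 666, 631 and 696 FPKM at KO 0 h. It fell by 1.44 ± 0.19 (limma, adjusted p = 2.77e-05) with no overlap. HNF4G averaged 4.19 ± 3.85 FPKM at KO 24 h and 0.493 ± 0.576 FPKM at KO 0 h (SD, n = 4 each; limma, adjusted p = 0.0272), lost in 4 of 8 fits that left out 1 library (up to 0.0956, without KO 24 h replicate 2), in a fit of the 8 KO libraries alone and after quantile normalization. HNF4A, a main regulator of hepatocyte identity, averaged 6.90 ± 1.77 and 9.87 ± 3.51 FPKM (limma, adjusted p = 0.549). FGB, a chain of fibrinogen, had 59.8, 56.3, 79.6 and 59.5 FPKM at KO 24 h and 132, 114, 108 and 87.8 FPKM at KO 0 h. It fell by 0.78 ± 0.16 (limma, adjusted p = 0.00324) and was the 1 called gene of 9 acute phase proteins. ALB, serum albumin, had 162, 130, 169 and 85.8 FPKM at KO 24 h and 65.7, 115, 140 and 102 FPKM at KO 0 h, with overlapping groups (limma, adjusted p = 0.449). GC, which carries vitamin D, and the growth factor IGF2° were lower by 1.63 ± 0.47 and 0.84 ± 0.24 (limma, adjusted p = 0.0424 and 0.0437), but each was lost in 7 of 8 fits that left out 1 library (up to 0.134 and 0.159, both without KO 24 h replicate 3) and after both rescalings. None of 22 complement and coagulation genes and none of 27 xenobiotic enzymes passed.

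COL18A1°, a basement membrane collagen, had 59.1, 63.9, 52.2 and 33.7 FPKM at KO 24 h, against 118, 118, 138 and 144 FPKM at KO 0 h, and fell by 1.33 ± 0.21 (limma, adjusted p = 0.000243). TGFB1°, a fibrogenic growth factor, averaged 5.43 ± 5.31 FPKM at KO 24 h and 21.5 ± 11.6 FPKM at KO 0 h (limma, adjusted p = 0.0348), a call lost in 5 of 8 fits that left out 1 library (up to 0.13, without KO 24 h replicate 1).

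**Figure D4:**
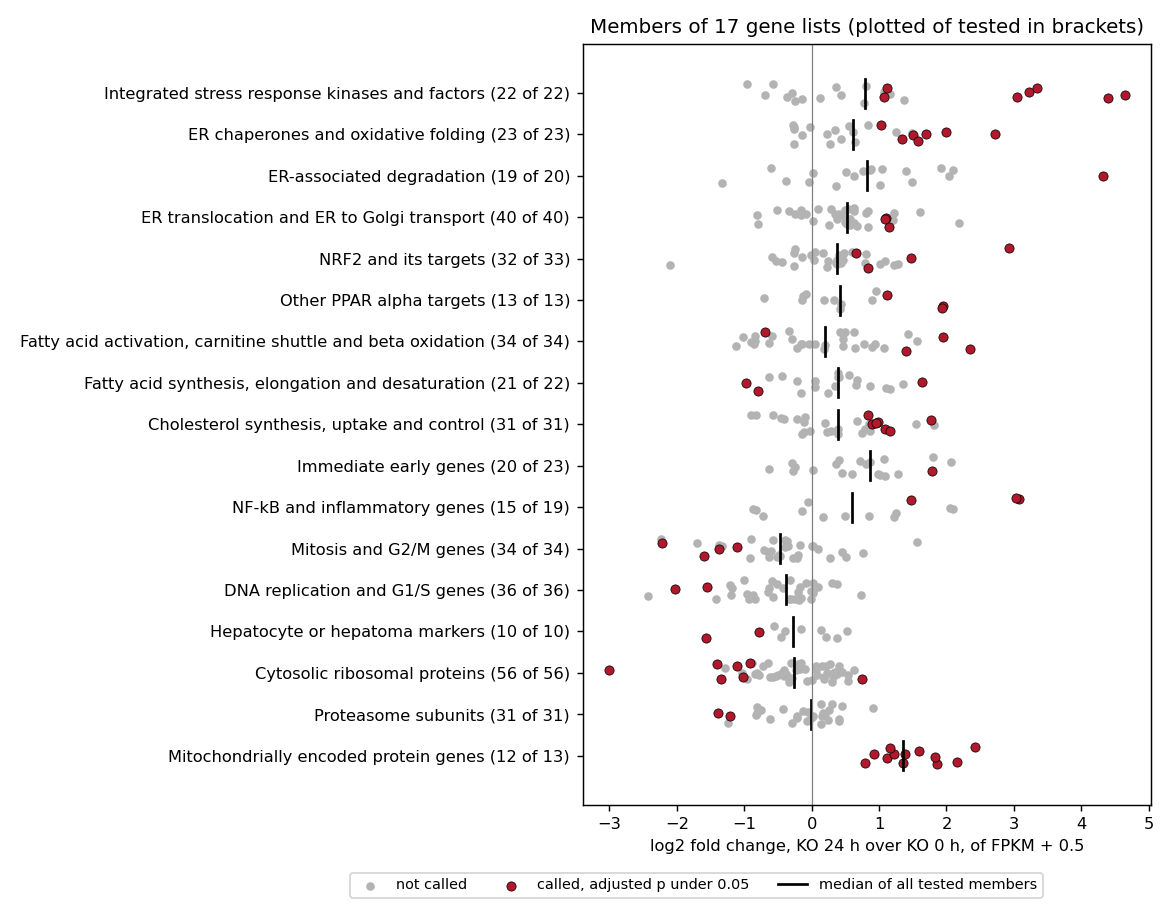
Log2 fold change, KO 24 h over KO 0 h, of the members of 17 gene lists, a row each, with called genes in red, others in grey and the median of all tested members as a black line. Of 460 tested entries 11 are not drawn because a whole KO group was listed at 0. The called members of the stress response, ER chaperone, NRF2 and cholesterol rows lie above 0 and those of the mitotic and replication rows below 0.

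Of the mitochondrial genome's 13 protein genes 12 were higher and 1 lower, with a median log2 fold change of 1.35, in libraries whose mitochondrial share was 11.5% at KO 24 h and 3.89% at KO 0 h. MT-ATP8, a subunit of ATP synthase, had 31408, 33176, 21602 and 36137 FPKM at KO 24 h, against 6064, 6927, 2979 and 7732 FPKM at KO 0 h (log2 fold change 2.43 ± 0.23; limma, adjusted p = 2.41e-07). MT-ND1, a subunit of complex I, had 890, 836, 752 and 966 FPKM at KO 24 h and 169, 187, 158 and 271 FPKM at KO 0 h and rose by 2.16 ± 0.15 (limma, adjusted p = 3.84e-09). MT-ND6, the protein gene on the other strand of the genome, had the highest level of the 13, with 33908 ± 3295 FPKM at KO 24 h and 19545 ± 1609 FPKM at KO 0 h (SD, n = 4 each). It rose by 0.79 ± 0.15 (limma, adjusted p = 0.00168). Whether the fragments behind the MT-ND6 level came from its own strand or from the opposite one was not tested. MT-CO1, the catalytic subunit of cytochrome c oxidase, was listed at 0 in all 4 KO 24 h libraries and had 449, 470, 273 and 494 FPKM at KO 0 h. It was also listed at 0 in all WT 24 h and KO 48 h libraries, and an exact 0 in a table of estimated values can be a failed estimate. Of 43 nuclear genes for respiratory chain subunits, ATP5PD° alone was called (limma, adjusted p = 0.0392), a call lost in 7 of 8 fits that left out 1 library (up to 0.113, without KO 0 h replicate 2). Without a variance trend MT-ND6 was not called.

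Ribosomal protein genes had 1 higher and 6 lower of 56, with a median of -0.26. Called genes were 12.5% of that list, beside 5.64% of all genes tested. RPL7A of the large subunit had 70.4, 132, 97.7 and 66.4 FPKM at KO 24 h and 243, 139, 186 and 210 FPKM at KO 0 h and fell by 1.11 ± 0.22 (limma, adjusted p = 0.00297). RPS15 of the small subunit had 123, 52.8, 47.2 and 102 FPKM at KO 24 h and 175, 214, 218 and 190 FPKM at KO 0 h and fell by 1.40 ± 0.31 (limma, adjusted p = 0.00662). Ribosomal protein genes have many processed copies, between which fragments could be split, and neither gene was called in a fit of the 8 KO libraries alone. The split of the list turned with the scaling, to 4 higher and 3 lower after median-of-ratios rescaling and 5 higher and 2 lower after quantile normalization. The proteasome subunits PSMD2 and PSMD3 fell by 1.21 ± 0.32 and 1.38 ± 0.35 (limma, adjusted p = 0.0263 and 0.0173). They were the 2 called of 31 (6.45%), which is near the 5.64% of all genes tested. Their calls were lost in 5 and 3 of 8 fits that left out 1 library, with an adjusted p of up to 0.104 and 0.0657 without KO 24 h replicate 0.

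Several of the genes with the largest changes belong to no list. CYSRT1, a cysteine-rich protein, had 79.3, 127, 53.0 and 72.4 FPKM at KO 24 h, against 4.44, 7.35, 0 and 2.61 FPKM at KO 0 h. It rose by 4.83 ± 0.68 (limma, adjusted p = 6.79e-05). LILRB3, an inhibitory receptor of leukocytes, had 37.7, 17.3, 14.5 and 11.8 FPKM and MATN1°, a cartilage matrix protein, 22.6, 6.26, 9.71 and 14.2 FPKM at KO 24 h, and both were listed at 0 in all KO 0 h libraries (limma, adjusted p = 1.32e-05 and 0.00805). PABPC1L, a poly(A)-binding protein, had 19.3, 8.15, 6.77 and 13.6 FPKM at KO 24 h and 0, 0, 0 and 1.06 FPKM at KO 0 h (limma, adjusted p = 0.00748). In WT cells PABPC1L did not rise, with 6.47 ± 4.78 FPKM at 24 h and 14.5 ± 10.7 FPKM at 0 h (SD, n = 4 each). The KO and WT responses were not shown to differ (difference: limma, adjusted p = 0.7). RPS9P1°, a processed copy of RPS9, averaged 27.9 ± 10.9 FPKM at KO 24 h and 2.83 ± 5.67 FPKM at KO 0 h (SD, n = 4 each; limma, adjusted p = 0.00161), which was not called in a fit of the 8 KO libraries alone. At the other end NPW, a neuropeptide, had 0, 0, 0 and 3.61 FPKM at KO 24 h and 18.1, 7.77, 19.6 and 24.9 FPKM at KO 0 h (limma, adjusted p = 0.00757). THAP8, a THAP domain protein, was listed at 0 in all KO 24 h libraries and had 5.84, 8.45, 3.65 and 17.4 FPKM at KO 0 h (limma, adjusted p = 0.0011), but 10.1, 9.57, 5.23 and 4.25 FPKM at KO 48 h. RSL24D1P6, a pseudogene, was listed at 0 in all KO 24 h libraries and had 11.9, 20.1, 27.2 and 59.6 FPKM at KO 0 h and 16.3, 0, 18.2 and 22.8 FPKM at KO 48 h (limma, adjusted p = 0.00748 at 24 h). Zeros were common. Of the 368 higher genes 46 were listed at 0 in all KO 0 h libraries, and of the 605 lower genes 17 in all KO 24 h libraries.

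The antisense genes with the largest rise were SYNE1-AS1°, BMF-AS1° and AL121787.1°. SYNE1-AS1, opposite SYNE1, had 75.1, 52.0, 67.3 and 56.1 FPKM at KO 24 h and 0, 0, 6.40 and 0 FPKM at KO 0 h (limma, adjusted p = 4.1e-05). BMF-AS1, opposite the BH3-only gene BMF, had 253, 200, 218 and 162 FPKM at KO 24 h, against 20.6, 13.4, 0 and 14.2 FPKM at KO 0 h, and rose by 4.92 ± 0.69 (limma, adjusted p = 6.48e-05). AL121787.1, opposite BACH2, averaged 65.5 ± 27.1 FPKM at KO 24 h and 8.96 ± 11.7 FPKM at KO 0 h (SD, n = 4 each; limma, adjusted p = 0.0033). BMF-AS1 and AL121787.1 were not called in a fit of the 8 KO libraries alone. AL512288.1°, opposite SMPDL3B, and AF129075.2°, opposite USP16, were listed at 0 in all KO 24 h libraries and averaged 11.5 ± 4.41 and 14.7 ± 5.61 FPKM at KO 0 h (limma, adjusted p = 0.00823 and 0.0175), the second lost in 1 of 8 fits that left out 1 library (0.056, without KO 0 h replicate 3). Of 198 called antisense genes with a tested protein-coding partner, the partner was called too in 16 (8.08%), beside 7.59% of all protein-coding genes with an overlap. Its direction was the same in 12 of the 16, and the sign of its log2 fold change in 131 of the 198.

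In WT cells 701 genes were called at 24 h against 0 h (4.06%), 252 higher (1.46%) and 449 lower (2.6%), and 415 (2.41%) were past 1 on the log2 scale. Of the 973 KO genes 432 were called in the same direction in WT cells, which is 44.4% of the KO genes and 61.6% of the WT genes, and 927 had the same sign. KO and WT comparisons share no library, but both take the spread of a gene from the same fit, so their calls are not independent. The difference between the KO and the WT response was tested for every gene in the same fit, and 0 genes passed (0%), with 950 at an unadjusted p of 0.05 (5.51%) and a lowest adjusted p of 0.222. A call in KO cells and none in WT cells is therefore not shown to be a difference.

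Side by side, PPP1R15A had log2 fold changes of 3.05 ± 0.30 in KO and 2.84 ± 0.30 in WT cells, HSPA5 of 1.5 ± 0.19 and 1.41 ± 0.19, and HMGB2 of -1.38 ± 0.20 and -1.44 ± 0.20. AREG gave 5.25 ± 0.65 in KO and 4.79 ± 0.65 in WT cells, and SLC2A1 -2.86 ± 0.65 and -3.04 ± 0.65. The values lay further apart for APOA1, at -1.57 ± 0.19 in KO and -0.86 ± 0.19 in WT cells, and for CTH, at 3.07 ± 0.68 and 0.19 ± 0.68 (difference: limma, adjusted p = 0.891 and 0.854). NDRG1 gave 3.63 ± 0.58 in KO and 0.77 ± 0.58 in WT cells, and KDM3A 2.18 ± 0.47 and -0.21 ± 0.47 (difference: limma, adjusted p = 0.728 and 0.7). NDRG1 averaged 9.76 ± 5.81 FPKM at KO 24 h and 0.503 ± 1.01 FPKM at KO 0 h, against 12 ± 5.07 FPKM at WT 24 h and 7.71 ± 5.82 FPKM at WT 0 h (SD, n = 4 each). The KO 0 h level lay below that of the other 3 groups. BMF-AS1 averaged 208 ± 37.7 FPKM at KO 24 h and 12 ± 8.65 FPKM at KO 0 h, against 182 ± 36.0 FPKM at WT 24 h and 56.1 ± 26.1 FPKM at WT 0 h. Some genes passed in WT cells and not in KO cells, among them DDIT3° and PSAT1 (WT: limma, adjusted p = 0.0445 and 0.0107; difference: 0.949 and 0.901).

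**Figure D5:**
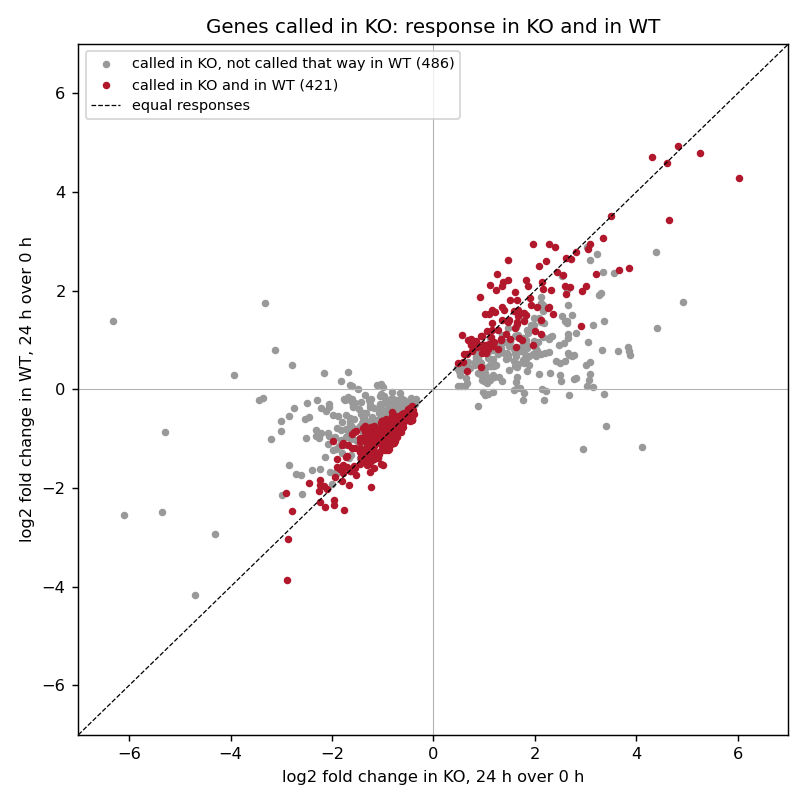
Log2 fold change at 24 h over 0 h in KO cells (horizontal) and WT cells (vertical), a point per gene, for 907 of the 973 genes called in KO cells. Red points are called in WT cells as well, and 66 genes listed at 0 in all libraries of a KO or WT group are not drawn. Of all 973 called genes, 927 share the sign of both axes.

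At 48 h in KO cells, whose comparison would use the same KO 0 h libraries, several genes stood between or beyond the values above. PPP1R15A averaged 7.53 ± 2.47 FPKM at 0 h, 63.5 ± 5.18 FPKM at 24 h and 35.6 ± 3.66 FPKM at 48 h, and HSPA5 71.7 ± 8.52, 203 ± 23.0 and 140 ± 13.6 FPKM at the same times (SD, n = 4 each). ATF4 averaged 123 ± 18.5 FPKM at 48 h, CYP51A1 306 ± 8.14 FPKM and HMGB2 18.8 ± 1.83 FPKM, each further from the 0 h level than at 24 h. No test of 48 h was made.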

How the data were processed

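Huh7 cells were profiled by RNA-seq as 24 libraries (KO and WT, 0, 24 and 48 h, 4 each). FPKM values were computed and deposited by the authors in 1 table of 58024 rows. STAR, Cufflinks, Cuffdiff and GRCh38 are named in the submitters' processing notes, and their versions and the strand setting are not given in the sources used here. RNA was extracted with RNeasy Plus and made into TruSeq directional mRNA libraries, per the labels' protocols. Groups were taken from the sample titles.

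From the FPKM values, log2(FPKM + 0.5) was fitted with limma 3.58.1 (R 4.3.3) as 6 group means with a variance trend, over 17252 genes with a mean of 0.5 FPKM or more, and 40727 genes were below that floor. Comparisons were KO 24 h against KO 0 h, the same in WT cells, and their difference, each adjusted by Benjamini-Hochberg at 0.05. The fit was tested on simulated data. Other tables used Python 3.11.15, numpy 2.4.6, pandas 2.3.3 and scipy 1.17.1, and plots matplotlib 3.10.9. The FPKM table holds no counts, so depth was read from the steps of its values. A low depth limits the precision of genes near the floor.

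Gene coordinates and overlaps came from GENCODE 29 (57375 IDs matched). Named genes were ABHD6, the 8 highest and 8 lowest called genes with a mean of 5 FPKM or more in the higher group and no overlap, up to 6 called members and the key members of each of 47 lists, and the 6 highest and 6 lowest antisense genes. The rule selected 145 genes. Which of them are described was decided after their values were seen. MSMO1, MT-ND6, ETFB and ATP5PD, and the 48 h values, were chosen after values were seen. The comparison, members and lists were chosen with earlier results of these data known. Alternatives were other pseudocounts, floors, scalings and fits, a replicate block and leaving out each library. The fits over genes without opposite-strand overlap, and over genes above 0 in both KO groups, were chosen after seeing the data. Some genes are not reported here.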

Additional observations from a re-analysis of the deposited data

Results flagged for a closer look

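In each KO group of 4, a library is given here when its gap to the nearest other one took more of the range of the group than the 95% critical value of Dixon's test. The screen covered 145 genes, which are those the naming rule selected, apart from 1 not reported here, and 1 more, and 31 of 290 groups met this, where chance flags about 1 in 20 groups. At KO 24 h, FADS1 had 244 FPKM in replicate 3, SQLE 43.9 FPKM in replicate 3, NPW 3.61 FPKM in replicate 3, CYP51A1 189 FPKM in replicate 2 and FGB 79.6 FPKM in replicate 2. At KO 0 h, replicate 0 stood above the others for ATF4 with 65.4 FPKM, SLC2A1 with 84.8 FPKM, AREG with 4.18 FPKM, ATF3 with 1.63 FPKM and NUPR1 with 11.6 FPKM, the last 3 listed at 0 in the other 3 libraries. KO 0 h replicate 1 stood apart for HERPUD1 with 15.9 FPKM, IL32 with 7.15 FPKM and NDRG1 with 2.01 FPKM, all higher, and for NQO1 with 1.59 FPKM and TUBB4B with 37.7 FPKM, both lower. KO 0 h replicate 2 stood apart for RPS9P1 with 11.3 FPKM and SYNE1-AS1 with 6.40 FPKM, and replicate 3 for CXCL8 with 1.45 FPKM and PABPC1L with 1.06 FPKM, all listed at 0 in the other 3 libraries. Among the genes not described above, MAP1LC3B° had 71.8 FPKM in KO 0 h replicate 0, against 9.80 to 11.2 FPKM in the other 3. AC005041.3 had 17.8 FPKM in KO 24 h replicate 2, against 5.41 to 6.97 FPKM. AC098848.1° had 23.9 FPKM in KO 0 h replicate 2, against 5.03 to 6.47 FPKM. CYP1A1 was listed at 0 in KO 24 h replicate 0 and in KO 0 h replicate 2 alone. Listed at 0 in the other 3 KO 24 h libraries were RPS21P4, with 51.7 FPKM in replicate 0, and ABHD6 with 0.759 FPKM in replicate 3. The same held in replicate 1 for HMGN2P5 with 15.1 FPKM, FANCD2OS° with 8.35 FPKM, AC098848.1 with 4.66 FPKM and PNPLA2° with 2.41 FPKM. ANGPTL4° had 3.94 FPKM in KO 0 h replicate 3 and was listed at 0 in the other 3. No explanation of these values was tested.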

How the results depend on the processing

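The 973 genes called in KO cells became 617 in a fit of only the KO groups, 639 without a variance trend and 199 among genes without opposite-strand overlap. The other settings gave 820 to 1089, and leaving out 1 library gave 708 to 939. The higher and lower calls were 368 and 605 as deposited, 467 and 496 after median-of-ratios rescaling, and 463 and 357 after quantile normalization. In WT cells 701 genes became 355, 334 and 107 under the same 3 settings, and 453 to 684 when 1 library was left out, the lowest without WT 24 h replicate 3. The difference between KO and WT responses had 0 calls, 2 in the fit of only the groups compared, and 0 to 2 when 1 library was left out, with 2 without KO 0 h replicate 0 and 1 each without KO 0 h replicate 2 and WT 24 h replicate 3. With the replicate number as a block the counts were 1017 in KO cells, 740 in WT cells and 0 for the difference. Same-numbered libraries did not deviate together (correlations -0.0371 to 0.0254 over 8097 genes), so the block pairs nothing. For 116 tested genes, kept for description after values were seen, each setting was compared gene by gene. Of these, 97 were called, 41 of them in all settings, and 0 reversed. EIF2AK3° was called without KO 24 h replicate 1 alone (limma, adjusted p = 0.0493). The cause of these shifts was not tested. Depth limits genes near the floor, where a single fragment on 2 kb is worth 0.845 FPKM at KO 24 h and 1.15 FPKM at KO 0 h.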
